A study of Zea mays with 6 samples.

Results

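The genes described here were scarce in young wildtype maize tassels and more abundant in tassels that carried the dominant mutations Bif1 and Bif4. They were chosen on the deposited normalized counts of all 6 libraries, with a wildtype mean below 50, a Bif1;Bif4 mean of at least 30, a ratio of the means (each plus 1) of at least 2, and every Bif1;Bif4 library above every wildtype library. Of 39305 identifiers in the table, 159 met these criteria. A further 2 identifiers that met the same values were left out by the rule and are not analysed here. Because the genotype difference chose the genes, that difference is given as a description and carries no test.

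The tassel is the male inflorescence of maize, and the samples were whole tassels of 2 to 4 mm from greenhouse plants in the B73 inbred background. The control group was wildtype, with 3 libraries made from pools of 5 tassels each. The other group was double heterozygous for Bif1 and Bif4, so that each plant also kept a normal copy of both genes, with 3 libraries made from pools of 10 tassels each. The labels do not say whether the pools came from separate plantings. All p-values given for other genes therefore measure the spread between pools, which may be technical. Pooling averages over plants, so that no value belongs to a single tassel. In bulk tissue, a change in the number of cells of a type and a change in RNA per cell cannot be told apart.

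As background, BIF1 and BIF4 encode Aux/IAA proteins, which repress auxin response genes until auxin triggers their breakdown. The dominant alleles make stabilised repressors, and the mutant tassels form few branches and spikelets, since auxin response is needed to start each lateral meristem. Several other hormone systems appear among the genes below: the TIFY family includes the JAZ proteins, which repress jasmonate responses and whose genes are switched on by jasmonate, 12-oxo-phytodienoic acid reductases include enzymes of jasmonate synthesis, and ACC synthases make the precursor of ethylene.

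The libraries held between 21047225 and 24636859 recovered reads, so that a floor of 3 reads corresponded to 2.75 to 3.30 normalized counts. On the first principal component, with 48.2% of the variance, the genotypes were separated, and on the second, with 24.4%, wildtype library 2 stood apart from the other 5. BIF1 itself had 650, 818 and 748 normalized counts in the wildtype libraries, against 267, 166 and 158 in the mutant libraries, a fall of 1.94 on the log2 scale (limma, adjusted p = 0.0029). BIF4 was at 346, 405 and 350 against 280, 151 and 230, which limma did not call (adjusted p = 0.0858) and DESeq2 on recovered reads called lower (log2 difference -0.74, adjusted p = 0.0204). Neither expression level checks the genotype, because the mutations change the proteins. Of the inflorescence markers, 3 of 5 fell and 1 rose by limma, with summed levels of 11501 to 12887 in wildtype and 7869 to 9254 in Bif1;Bif4. The marker ra3, a trehalose phosphate phosphatase gene that acts in branching, had means of 1801 and 3.60 normalized counts in wildtype and Bif1;Bif4 (limma, log2 difference -8.61, adjusted p = 7.26e-05). Leaf markers summed to 4518 to 4953 in wildtype and 4445 to 4939 in Bif1;Bif4, and none of the 12 tested of 23 passed. Of the vascular and secondary wall markers 4 of 5 were too low to be tested, with sums of 8.25 to 48.5 and 32.1 to 38.2, and the highest sum was that of wildtype library 2. Epidermis markers summed to 9716 to 11025 in wildtype and 13475 to 15139 in Bif1;Bif4, with 1 of 5 risen and 1 fallen. The higher sum came from LTP3, a lipid transfer protein gene, without which the sums were 6088 to 7105 in wildtype and 5501 to 5892 in Bif1;Bif4. Anther and tapetum markers summed to 2763 to 3264 in wildtype and 1994 to 2149 in Bif1;Bif4, with the 1 tested of 3 fallen. That gene, ocl4, was also the epidermis marker that fell, and it made up nearly all of the sum. The anther genes ms8 and ms23 had means of 0.367 or less in both genotypes. Floral organ markers summed to 718 to 925 and 538 to 634, and of the 2 tested of 5, 1 rose and 1 fell. Of 2 root markers 1 was at 0 and the other did not pass limma, with sums of 396 to 547 and 454 to 1043. The part of these markers in the levels of the 159 genes was not tested, and no marker was among them.

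The 159 genes spanned a wide range within the limits of the rule. Their wildtype means ran from 0 to 49.4 normalized counts with a median of 18, and 32 genes were below 10. Their Bif1;Bif4 means ran from 30.03, in GRMZM2G407790, to 456 with a median of 62.1, and 29 genes were above 100. The ratio of the means had a median of 3.29 and reached 85.0. It lay below 3 for 64 genes, between 3 and 4 for 41 and at 4 or above for 54, of which 13 reached 10 and 5 reached 20. Summed over all 159 genes, the wildtype libraries held 3036, 3724 and 2689 normalized counts, and the Bif1;Bif4 libraries 11892, 12708 and 12134. Even in the mutant tassels the genes together made up only 0.0522 to 0.0555% of all normalized counts, against 0.0121 to 0.0165% in wildtype.

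**Figure D1:**
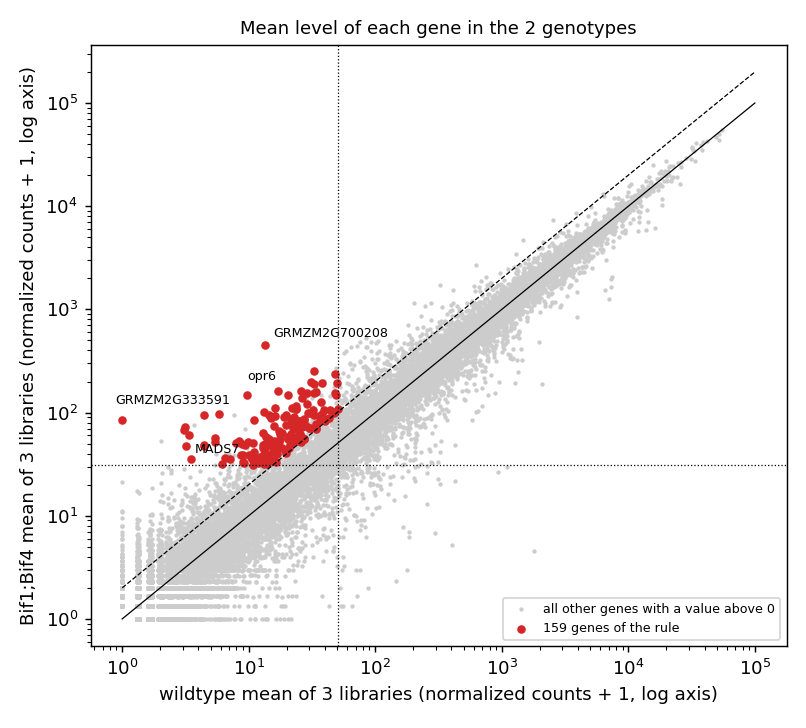
Mean normalized count plus 1 of each gene in wildtype (horizontal, log axis) and in Bif1;Bif4 (vertical, log axis), 3 libraries each. Red points are the 159 genes, dotted lines the limits of 50 and 30, the solid line equal means and the dashed line a ratio of 2. The 159 genes fill the upper left corner that the rule defines, and GRMZM2G700208 reaches the highest Bif1;Bif4 mean, 456.

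Genes lay close to each limit of the rule on both sides. Just inside the wildtype limit, GRMZM2G409128 had a wildtype mean of 49.4, and just outside it GRMZM2G033555 had 50.3 with a ratio of 4.19. Just inside the Bif1;Bif4 limit, GRMZM2G407790 had a mean of 30.03, and just outside it GRMZM2G413711 had 29.8 with a ratio of 5.69. At the ratio limit, GRMZM2G161097 was inside at 2.01 and GRMZM5G829103 outside at 1.97. With the genotypes exchanged, the same rule took 292 genes, and with a wildtype mean of 50 or more in place of below 50 it took 135.

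A limma fit across the 21924 genes that passed the filter of 10 normalized counts in at least 3 libraries called 2.13% of them higher in Bif1;Bif4 and 2.91% lower. Of the 159 genes, 158 were in this fit and 64 were called higher. That count was 91 without wildtype library 2 and 22 to 34 without any 1 of the other 5 libraries. edgeR on recovered reads called 1.95% of all tested genes higher, and 59 of the 159, of which 57 were also called by limma. DESeq2 on recovered reads called 4.57% of all tested genes higher and 110 of the 159. In the authors' deposited table, 4.26% of the genes with an adjusted p were called higher, as were 105 of the 154 genes of the set that had one. The Bif1;Bif4 libraries were all above the wildtype libraries in 12.6% of tested genes and, by the rule, in all 159. These counts use the contrast that chose the genes, so that nothing is read from them. GRMZM2G474755 was outside the fit, with 4.40, 1.83 and 4.13 normalized counts in wildtype and 89.4, 42.7 and 7.83 in Bif1;Bif4.

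RefSeq (Zm-B73-REFERENCE-NAM-5.0) matched 108 of the 159 identifiers to 1 gene each, of which 105 were protein coding and 3 were transcribed pseudogenes, and 51 had no match. The matched share was 67.9%, beside 65.9% of all tested genes. Only 17 carried a gene symbol that says what the gene is, so that most of the set is described by identifier alone. A comparison of gene length was void, since fewer than 80% of the genes had a length.

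The most extreme ratio belonged to a gene without a symbol. GRMZM2G333591 had no read in any wildtype library and stood at 92.3, 84.4 and 75.3 normalized counts in Bif1;Bif4. Against a floor of 3 reads in each wildtype library it was at least 27.6-fold higher, and it was the only one of the 159 at 0 in all 3 wildtype libraries, while 8 were at 0 in at least 1. GRMZM2G700208 had the highest mutant level of the set, at 304, 355 and 708 normalized counts against 5.51, 27.5 and 4.13. Its lowest mutant library exceeded its highest wildtype library, library 2, by a wide margin.

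Other unnamed genes were nearly silent in wildtype. GRMZM2G045109 was at 1.10, 1.83 and 4.13 normalized counts in wildtype, against 60.2, 42.7 and 74.4 in Bif1;Bif4. GRMZM2G131409 was at 4.40, 1.83 and 8.25 against 73.8, 47.7 and 167. GRMZM2G153096 was at 2.20, 10.1 and 1.03 against 56.4, 61.6 and 49.9. The mutant libraries were close together in the last of these and spread more than 3-fold in GRMZM2G131409, where library 3 was highest.

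GRMZM2G035278 was at 6.61, 19.2 and 0 normalized counts in wildtype, against 122, 116 and 204 in Bif1;Bif4. GRMZM2G104626 was at 6.61, 2.75 and 1.03 against 49.6, 72.5 and 21.5. In both, no wildtype library reached the lowest mutant library, which the rule requires of every gene of the set. Among the genes with high mutant means, some had a clear wildtype level in all 3 libraries. GRMZM2G395114 was at 59.5, 46.7 and 36.1 in wildtype, against 201.1, 220 and 289 in Bif1;Bif4, and GRMZM2G141819 was at 52.8, 31.1 and 27.9 against 172, 148 and 259. GRMZM2G143210 combined a spread wildtype group, at 8.81, 29.3 and 45.4, with a tight mutant group at 158, 150 and 157. GRMZM2G177050 was the opposite case, with 38.5, 7.32 and 2.06 in wildtype and 239, 200 and 39.1 in Bif1;Bif4, so that the lowest mutant library barely passed the highest wildtype one. GRMZM2G077187, at 51.7, 29.3 and 17.5 against 100, 296 and 78.3, was highest in Bif1;Bif4 library 2.

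**Figure D2:**
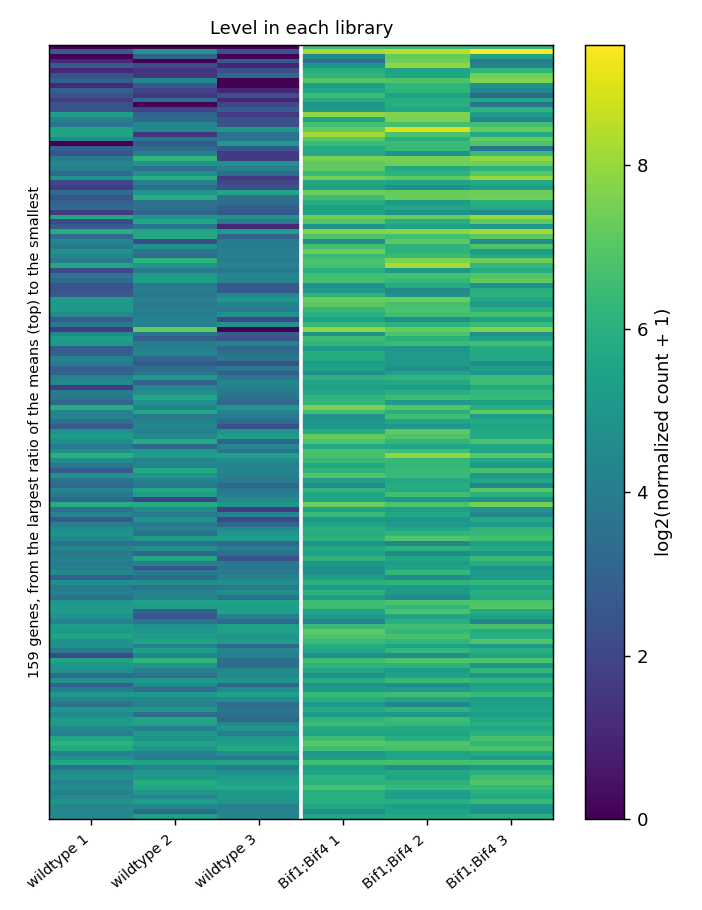
Level of each of the 159 genes (rows) in each of the 6 libraries (columns) as log2(normalized count + 1), ordered from the largest ratio of the means, 85.0, to the smallest, 2.01. The 3 right columns are brighter in every row, as the rule requires, and single bright cells in the column of wildtype library 2 mark genes that were high in that library.

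Gene families that include enzymes of hormone synthesis were represented by opr6 and acs7. The gene opr6, of the 12-oxo-phytodienoic acid reductase family, was at 19.8, 28.4 and 26.8 normalized counts in wildtype, against 143, 168 and 170 in Bif1;Bif4. Its means were 25 ± 4.56 and 160 ± 15.2 (SD, n = 3 each), and the libraries of each genotype lay close together. The list of jasmonate synthesis genes took whole families by symbol, so that not every gene in it need act in that pathway. It held 18 other tested genes, and none passed limma in either direction. Of these 18, 11 had their highest value in wildtype library 2, among them the lipoxygenase gene lox10 at 1874, 17573 and 1580 in wildtype against 1028, 1098 and 1678. Outside the set, 8 of 12 tested NAC genes, 13 of 28 MYB genes and 0 of 11 heat shock genes also had their highest value there. The count was thus not particular to this list. The gene opr2, of the same family as opr6, was below the limits of the rule, at 2.20, 0 and 1.03 in wildtype and 18.5, 18.9 and 6.85 in Bif1;Bif4. The lipoxygenase gene ts1, needed for jasmonate synthesis in the tassel, was at 122, 212 and 64.0 against 356, 499 and 173, and limma did not call it (log2 difference 1.39, adjusted p = 0.234), although DESeq2 on recovered reads did (log2 difference 1.36).

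The ACC synthase gene acs7 was at 33.0, 15.6 and 13.4 normalized counts in wildtype, against 78.7, 108 and 65.5 in Bif1;Bif4. Its means were 20.7 ± 10.8 and 84.2 ± 21.9 (SD, n = 3 each), a ratio of 3.93. A second ACC synthase gene, ACS6, was at 66.1, 53.1 and 94.9 in wildtype and 28.2, 80.5 and 27.4 in Bif1;Bif4, groups that overlapped, and limma did not call it (adjusted p = 0.358).

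The 2 TIFY genes stood out by how unevenly the mutant libraries carried them. TIFY9, also named ZIM18, was at 1.10, 0 and 5.16 normalized counts in wildtype, against 10.7, 174 and 14.7 in Bif1;Bif4. TIFY28, also named ZIM4, was at 5.51, 3.66 and 1.03 against 31.1, 233 and 19.6. In both, Bif1;Bif4 library 2 was far above the other mutant libraries, by 16.3-fold and 11.9-fold over the lowest, the widest spreads of the set. Without that library the mutant means were 12.7 and 25.3, the ratios 4.43 and 5.99, and neither gene met the minimum of 30.

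Of the 15 other tested TIFY and ZIM genes, 4 had their highest value of all 6 libraries in Bif1;Bif4 library 2 and 7 had it in wildtype library 2. For 28 tested MYB genes outside the set these counts were 7 and 13, and for 11 heat shock genes 0 and 0. Some low TIFY genes that the rule did not take, named after their values were seen, also had their highest value in Bif1;Bif4 library 2. TIFY20 was at 7.71, 9.15 and 1.03 normalized counts in wildtype, against 5.83, 67.5 and 5.87 in Bif1;Bif4. TIFY10, the neighbour of TIFY9 in RefSeq gene order, was at 0, 0 and 1.03 against 0.972, 13.9 and 0. TIFY13, also named JAZ9, was counted in no library except Bif1;Bif4 library 2, at 3.97. These 3 were low or absent in the other mutant libraries. They did not pass the filter for the fit and are not among the 4 tested genes counted above. Among the TIFY genes with high levels the groups overlapped or lay close: TIFY23 was at 2238, 1874 and 2073 in wildtype and 2141, 2073 and 1992 in Bif1;Bif4. Of 21 TIFY or ZIM genes matched by symbol, a list added after the values were seen, 17 were tested, and none of the 15 outside the set passed limma in either direction. Where neighbouring TIFY copies are alike, it is not known how reads that match more than 1 copy were counted, so that single values of these genes are uncertain.

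**Figure D3:**
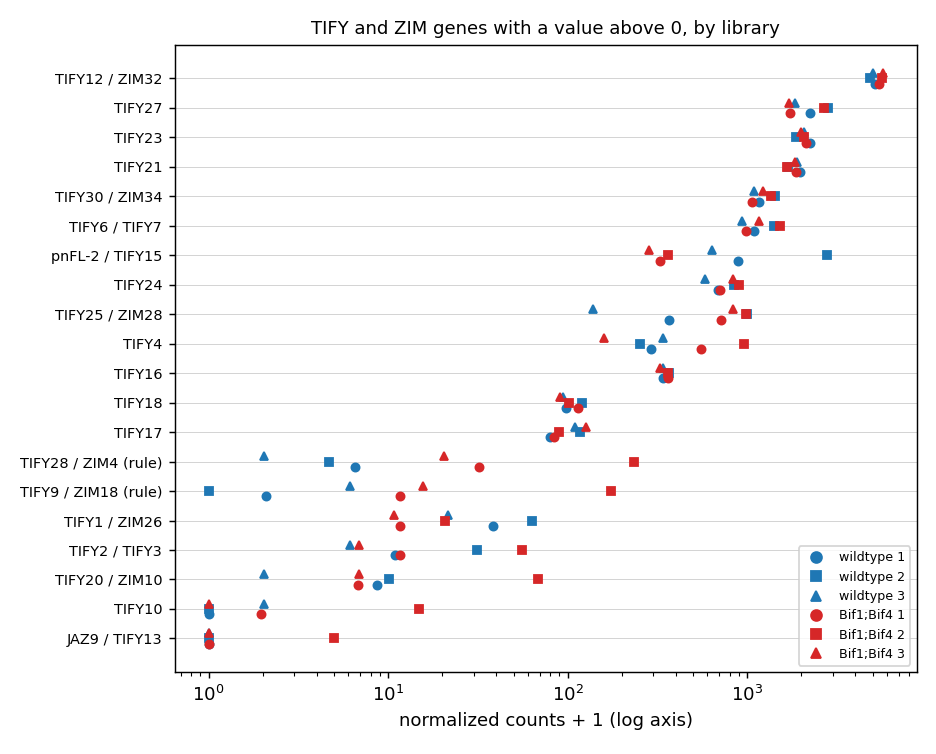
Normalized counts plus 1 (log axis) of the 20 TIFY and ZIM genes with a value above 0, by library. Blue marks wildtype and red Bif1;Bif4, with circles, squares and triangles for libraries 1, 2 and 3, and "rule" marks the 2 genes of the set. In TIFY28, TIFY9, TIFY20 and TIFY10, among others, the red square of Bif1;Bif4 library 2 lies to the right of all other points.

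Transcription factor genes made up 8 of the 17 with a symbol. The MADS-box gene MADS7, also named MADS8, was at 1.10, 5.49 and 0 normalized counts in wildtype, against 37.9, 74.5 and 27.4 in Bif1;Bif4. A second identifier of the same RefSeq record, GRMZM2G032070, was at 0 in all 6 libraries. Among 16 other tested MADS genes, 2 rose and 5 fell by limma. The AGAMOUS-type gene ZMM2 lay between 73.2 and 126 normalized counts in wildtype and between 279 and 363 in Bif1;Bif4 (limma, log2 difference 1.67, adjusted p = 0.00587). Further identifiers named zmm2, GRMZM2G316366 and GRMZM2G492156, were too low to be tested. Their means were 6.15 and 3.90 in wildtype and 7.19 and 5.90 in Bif1;Bif4. The other MADS gene that rose was zmm19, the gene of the Tunicate locus, between 870 and 1578 in wildtype and between 3053 and 3838 in Bif1;Bif4 (limma, log2 difference 1.44, adjusted p = 0.023). That call was lost without wildtype library 3 or any 1 mutant library, with an adjusted p of up to 0.0944. Among those that fell was sts1, between 627 and 790 in wildtype and between 244 and 258 in Bif1;Bif4 (limma, log2 difference -1.52, adjusted p = 0.000536).

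PLTZ1, a PLATZ zinc-binding factor gene, had the tightest mutant group of all 159, at 97.2, 100 and 102 normalized counts, with 12.1, 20.1 and 4.13 in wildtype. Its highest and lowest mutant libraries differed by a factor of 1.05. The other tested PLATZ genes, PLTZ8 and PLTZ9, did not pass limma, and their groups overlapped, but PLTZ9 was called without wildtype library 2 (log2 difference 2.06).

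The SRS2 gene, of a family whose members in Arabidopsis promote auxin synthesis, was at 17.6, 49.4 and 17.5 normalized counts in wildtype, against 93.3, 62.6 and 136 in Bif1;Bif4. Wildtype library 2 came close to the lowest mutant library. The homeobox gene HB45 showed this more strongly, at 16.5, 50.3 and 4.13 against 71.9, 50.7 and 84.1, so that a fraction of a normalized count kept the groups apart. The touching values came from 55 reads in wildtype library 2 and 51 in Bif1;Bif4 library 2, so that their order rests on the scaling. HB84, by contrast, was even in wildtype at 36.3, 35.7 and 38.2, and stood at 88.4, 74.5 and 127 in Bif1;Bif4. Of 30 other tested homeobox genes, 1 rose and 7 fell by limma. The leucine-zipper gene hdz10, which rose, lay between 346 and 520 normalized counts in wildtype and between 757 and 1044 in Bif1;Bif4 (limma, log2 difference 1.001, adjusted p = 0.0233). The WOX gene ns1, which acts in lateral organ margins, fell from between 42.1 and 50.6 to between 1.94 and 9.78 (limma, log2 difference -3.02, adjusted p = 0.0131). The call of hdz10 was lost without wildtype library 1 or 3 or mutant library 1 or 2, with an adjusted p of up to 0.0758, and that of ns1 without wildtype library 1 or 3, with up to 0.0563.

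Of the 3 MYB-type genes, MYB34 was the most even, at 48.4, 43.9 and 46.4 normalized counts in wildtype and 95.2, 104 and 97.8 in Bif1;Bif4. The gene named Myb56 or myb8 was at 23.1, 18.3 and 22.7 against 84.5, 78.5 and 48.9. MYBR90 was at 15.4, 9.15 and 22.7 against 34.0, 33.8 and 47.9. In MYB34 the libraries of each genotype nearly coincided, while MYBR90 had the narrowest gap between the groups. None of 28 other tested MYB genes rose by limma and 2 fell, MYBR113 with a log2 difference of -3.03 (adjusted p = 0.00211) and Myb30 with one of -1.62 (adjusted p = 0.0263). The call of Myb30 was lost without wildtype library 1 or 3 or mutant library 1 or 2, with an adjusted p of up to 0.0869.

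The cell wall invertase gene incw1, whose product splits sucrose outside the cell, was at 20.9, 15.6 and 26.8 normalized counts in wildtype, against 62.2, 95.3 and 98.8 in Bif1;Bif4. Its means were 21.1 ± 5.63 and 85.4 ± 20.2 (SD, n = 3 each). The other tested invertase genes had their highest value in wildtype library 2. The vacuolar invertase gene ivr2 was at 26.4, 363 and 20.6 against 189, 127 and 173, called among the alternatives run only without that library (limma, log2 difference 2.73), and mn1, the cell wall invertase of the miniature1 seed mutant, was at 13.2, 94.3 and 7.22 against 9.72, 5.96 and 13.7.

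The remaining genes with a symbol were of mixed kinds. ERD3, named for an early response to dehydration in Arabidopsis, was at 62.8, 36.6 and 42.3 normalized counts in wildtype, against 105, 232 and 127 in Bif1;Bif4. The small heat shock protein gene hsp22 was at 19.8, 9.15 and 17.5 against 25.3, 43.7 and 28.4, close to the ratio limit at 2.03, and none of 11 other tested heat shock genes passed limma. The gene named PK1 or ptk1 was at 6.61, 11.9 and 6.19 against 24.3, 41.7 and 28.4. The gene pglcat7 was at 11.0, 21.1 and 2.06 against 43.7, 37.7 and 26.4. All 4 had groups that lay apart by less than the spread of the mutant libraries.

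**Figure D4:**
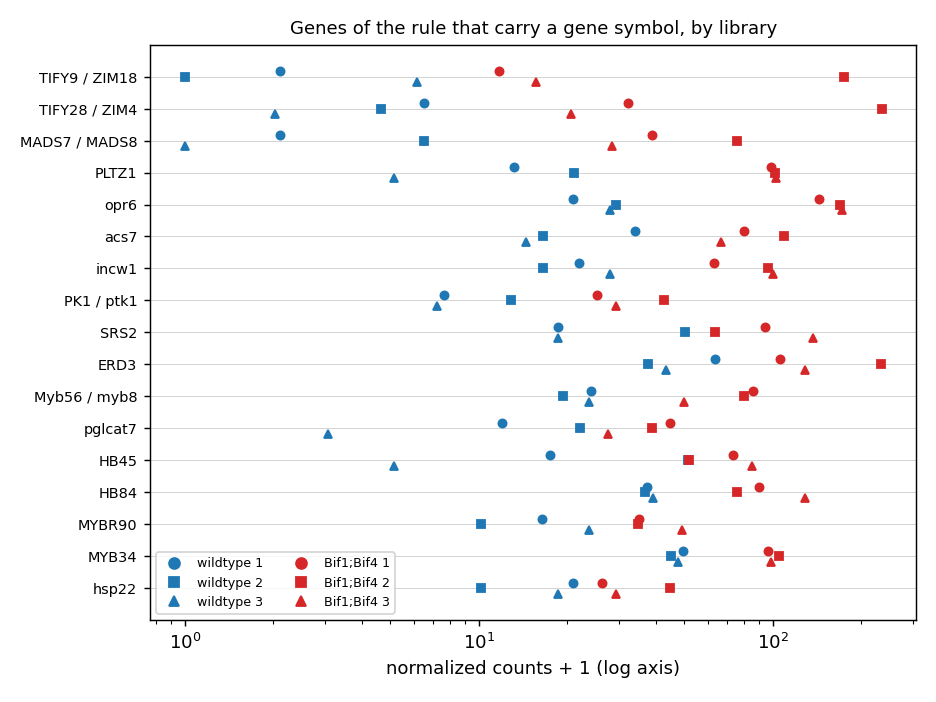
Normalized counts plus 1 (log axis) of the 17 genes of the set that carry a gene symbol, from the largest ratio of the means (top) to the smallest. Blue marks wildtype and red Bif1;Bif4, with circles, squares and triangles for libraries 1, 2 and 3. The red points of PLTZ1 coincide near 100, those of TIFY9 and TIFY28 lie far apart, and the blue square of HB45 touches a red one.

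Across the 8 lists of related genes that held one of the 159, the added TIFY list aside, 110 other genes were tested, and 3 rose (2.73%) while 14 fell (12.7%). Over all 35 lists, 336 other genes were tested, and 11 rose (3.27%) while 34 fell (10.1%). Of all tested genes 2.13% rose and 2.91% fell, so that the share of list genes that fell was larger and the share that rose was close to the background. The lists hold genes of regulatory, metabolic, transport and other families matched by symbol, and nothing particular to them is read from these shares. One risen gene lay just below the limits: the transcription factor gene bHLH139 was at 2.20, 0 and 1.03 normalized counts in wildtype, against 21.4, 19.9 and 33.3 in Bif1;Bif4 (limma, log2 difference 3.75, adjusted p = 0.00981).

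Gene order was read from RefSeq for 17888 identifiers, of which 108, or 0.604%, were of the set. Within 25 genes on either side of BIF1 and of BIF4 there was none. Within 100 genes on either side there was 1 at each, GRMZM2G390896 near BIF1 and ptk1 near BIF4. The first was at 16.5, 17.4 and 25.8 normalized counts in wildtype and 33.0, 45.7 and 52.8 in Bif1;Bif4. Only 1 pair of the set was adjacent: GRMZM2G023237 was at 4.40, 0 and 3.09 against 31.1, 59.6 and 11.7, and GRMZM2G023436 at 17.6, 12.8 and 18.6 against 82.6, 48.7 and 19.6. In both, Bif1;Bif4 library 3 was the lowest mutant library, and in GRMZM2G023436 it came close to the wildtype libraries. GRMZM2G166459, at 14.3, 36.6 and 15.5 against 47.6, 93.4 and 67.5, shared its RefSeq record with GRMZM2G464263, which was at 52.8, 44.8 and 48.5 against 45.7, 50.7 and 53.8. The paired identifiers therefore gave different values for what RefSeq holds as 1 gene.

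The spread of the mutant libraries is given as a description, because the rule favours genes in which no mutant library is low. The highest mutant library exceeded the lowest by a median factor of 1.74, by less than 1.5 in 43 genes and by less than 2 in 104, and by 3 or more in 24. In 8 genes, Bif1;Bif4 library 2 was at least 3 times each of the others and at 10 or more, whereas no gene had such a library 1 or 3. Besides TIFY9 and TIFY28 these included GRMZM2G050076, at 0, 6.41 and 0 in wildtype and 21.4, 148 and 45.0 in Bif1;Bif4, GRMZM2G136970, at 16.5, 9.15 and 4.13 against 44.7, 189 and 19.6, and GRMZM2G112830, at 45.1, 20.1 and 30.9 against 141, 472 and 142. The others were GRMZM2G135960, GRMZM2G552956 and GRMZM2G153359. Without that library 3 of the 8 still met the rule. Among 928 genes within the same level limits but with a ratio under 2, none was high in Bif1;Bif4 library 2 in this way, although the ratio limit itself favours genes with 1 high mutant library.

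In wildtype, library 2 was the uneven one. It was at least 3 times each other wildtype library, and at 10 or more, in 16 of the 159 genes (10.1%), against 3 genes for library 1 and 1 for library 3. In the 928 genes with a ratio under 2 the same held for 3.02%, and in all tested genes for 1.58%. These groups were not matched for wildtype level, and the ratio limit keeps the lowest wildtype means out of the 928. Of the 159 genes, 32 had wildtype means below 10, where a few reads can make such an excess. Nothing particular to the 159 is therefore read from these shares. GRMZM2G107380 was the clearest case, at 2.20, 146 and 0 normalized counts in wildtype, against 232, 149 and 194 in Bif1;Bif4. Its values of 146 and 149 came from 159 reads in wildtype library 2 and 150 in Bif1;Bif4 library 2, so that their order rests on the scaling. GRMZM5G854138 was at 14.3, 73.2 and 2.06 against 181, 179 and 229. Without wildtype library 2 the ratios of these 16 were 5.74 to 91.7, higher than with it because the highest wildtype value is taken out. GRMZM2G020156 had a like but smaller excess, at 28.6, 64.1 and 2.06 against 173, 134 and 251.

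Wildtype library 2 also kept genes out. Without it 323 genes met the rule, of which 147 were among the 159, and 176 joined. In 153 of those 176, wildtype library 2 was at or above the lowest mutant library, and in 64 above the highest. A gene could join only where wildtype library 2 had made it fail the rule, so that high values there follow from the choice of genes. Leaving out a library also loosens the rule: with each other library left out in turn, 169 to 233 genes met it. The ribosome-inactivating protein gene rip2 was at 68.3, 1970 and 16.5 normalized counts in wildtype, against 653, 757 and 1111 in Bif1;Bif4. The asparagine synthetase gene asn3 was at 8.81, 219 and 8.25 against 68.0, 375 and 391. The transcription factor gene bHLH123 was at 0, 43.0 and 1.03 against 94.3, 42.7 and 82.2. In these 3 genes, named after their values were seen, wildtype libraries 1 and 3 were low while wildtype library 2 was within or above the range of the mutant libraries. What set wildtype library 2 apart was not tested, and the labels record nothing that distinguishes it.

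**Figure D5:**
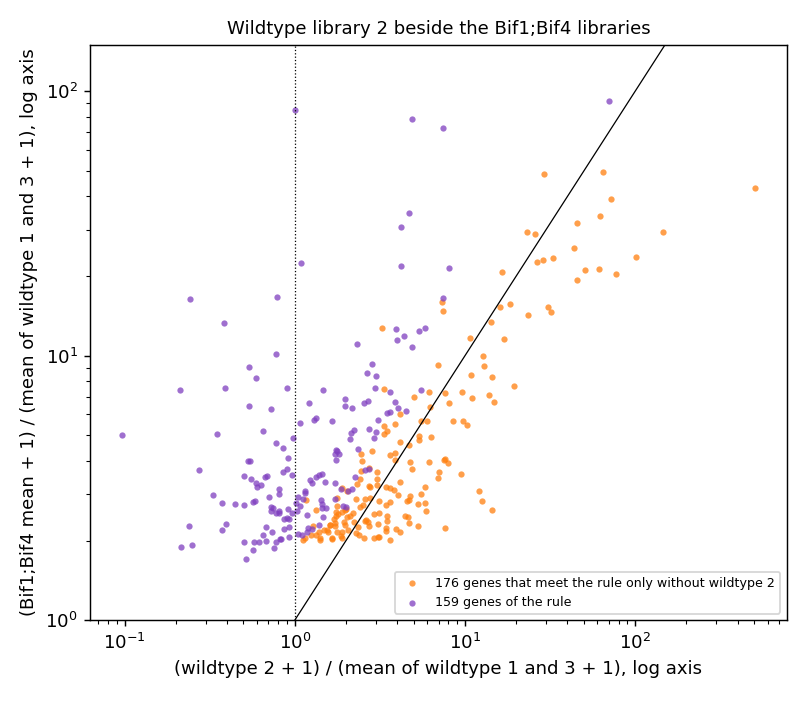
Level in wildtype library 2 (horizontal) and mean Bif1;Bif4 level (vertical), each plus 1 and divided by the mean of wildtype libraries 1 and 3 plus 1, on log axes. Purple marks the 159 genes and orange the 176 that met the rule only without wildtype library 2; the solid line marks equal values. The rule places all purple points above the line, and many orange points lie on or below it, where wildtype library 2 reached the mutant mean and kept the gene out.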

How the data were processed

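Messenger RNA of 6 tassel libraries was measured, 3 per genotype. Per the submitters' processing notes, the authors used Trimmomatic, TopHat2 2.1.1, HTSeq and DESeq2; build, annotation and counting strand were not given in the sources used here, and the libraries were stranded per the labels' protocols. The deposited signal values were read counts divided by size factors (normalized counts), in which whole reads were recovered within a tolerance of 1e-06 for all values (100%). The authors' deposited table also held log2 fold changes and p-values, which were used only to count genes.

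The members, lists and named genes were chosen with earlier results of these data known. limma 3.58.1 was fitted to log2(normalized count + 1) over genes with at least 10 in at least 3 libraries, with Benjamini-Hochberg adjustment and a threshold of 0.05. Such fold changes understate low genes. edgeR 4.0.16 and DESeq2 1.42.0 were run on recovered reads, in R 4.3.3. The fits were tested on simulated data. Genes named were those with the 12 largest ratios, the 12 highest Bif1;Bif4 means, all with a symbol, up to 3 per list, up to 4 at each limit, and called relatives; a few were added after their values were seen. Planned comparisons with the closest paralogs and of promoter motifs were not run, because no sequence tables were used here. Floors cover counting error only.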

Additional observations from a re-analysis of the deposited data

How the results depend on the processing

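The number of genes meeting the rule was 159 with TMM-scaled reads too, all of them the same genes. It was 84 with a Bif1;Bif4 minimum of 60, 54 with a ratio of at least 4 and 262 with overlap allowed, and without 1 library each it ran from 169 to 323, with 141 to 147 of the 159 retained. The cause of the highest value, without wildtype library 2, was not tested. The count of the 159 called by limma, 64, became 35 with a minimum of 50 normalized counts and 110 with DESeq2, and ran from 22 to 91 without 1 library each. Over all genes, DESeq2 called 1001 higher and 1117 lower, against 467 and 637; without 1 library each, limma called 167 to 776 higher and 282 to 627 lower. Of the listed related genes, DESeq2 called 21 higher and 53 lower against 11 and 34, and limma without 1 library called 6 to 34 and 14 to 34. Libraries with the same number shared only that number (correlations of their deviations 0.07, -0.17 and -0.03), and with the replicate block limma called 381 higher, 429 lower and 59 of the 159. All other alternatives gave counts within 1.5 times. Among the 34 tested members named by the rule, 457 alternative values moved by less than the replicate SD and 5 by more, and among 34 other genes named by it 90 calls were lost and 1, that of BIF4 by DESeq2, was gained; none of these changed direction. Of 30 further tested genes of the text, 15 calls were lost and 11 gained, and 3 uncalled genes near 0 changed direction: without 1 library each, TIFY23 ran from -0.0593 to 0.0690, PLTZ8 from -0.0131 to 1.065 and GRMZM2G464263 from -0.0194 to 0.101, and TIFY23 was at -0.000679 with edgeR. Calls gained were those of ts1 (DESeq2, and the replicate block), of ivr2, PLTZ9, rip2, bHLH123 and GRMZM5G829103 (without wildtype library 2), and of GRMZM2G033555. Alternatives for paralogs and promoter motifs were not run. Below about 3 normalized counts, levels rest on 3 or fewer reads.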
